A study of Mus musculus with 2 samples.

Results

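The genes followed here encode proteins of nuclear export, the nuclear envelope and chromatin, and their RNA was followed while red blood cells develop in the mouse fetal liver. They are the nuclear export receptor gene Xpo7, the lamin genes Lmna, Lmnb1 and Lmnb2, the lamin B receptor gene Lbr, the high mobility group genes Hmgb1, Hmgb2 and Hmgb3, and the histone variant genes H2afz and H2afx. They were chosen by name, as the 10 rows with these symbols among 27998 genes listed, of which 17768 had at least 1 unique molecular identifier (UMI, a tag that marks 1 captured RNA molecule). The data are 1 CITE-seq experiment, in which messenger RNA and surface-bound antibodies are read together in single cells. The cells came from pooled fetal livers of C57BL/6 mice at e13.5, without mutation or treatment. Cells bearing Ter119, a surface antigen of late erythroid cells, had been partly depleted and then added back, so that cell numbers per stage are not those of the liver. There was no replicate library, so each interval given is a 95% interval for counting error alone and no difference between stages has a replicate check.

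During terminal erythroid differentiation the nucleus shrinks, its chromatin condenses and it is at last expelled. Lamins form the meshwork under the inner nuclear membrane, and the lamin B receptor in that membrane ties heterochromatin and B-type lamins to the envelope. Exportin 7, the product of Xpo7, carries proteins out of the nucleus and is known for its part in the condensation of the erythroid nucleus. HMGB proteins bend DNA, and the variants H2A.Z and H2A.X take the place of the ordinary histone H2A in nucleosomes. Nuclear size and chromatin packing were not measured in these data.

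The cDNA library held 7863 cells and 58606632 UMIs, with a median of 5707 UMIs per cell, and each of its barcodes also had antibody counts. After filters on quality, doublets and antibodies to other lineages, 6160 cells were ordered by Ter119 and by CD71, the transferrin receptor. S0-low (1395 cells), S0-medium (1000) and S1 (602) are Ter119-low with increasing CD71, S2 (1258) is Ter119-intermediate, S3 (835) is high for both, and S4/S5 (859) is Ter119-high with less CD71. Summed over the progenitor genes Kit, Gata2, Cd34 and Myb, the mean level was 310 counts per 1000000 (CPM) in S0-low and 12.3 CPM in S2. That sum was lowest in S2 and stood at 17.1 CPM in S3 and 23.4 CPM in S4/S5. Alas2, which encodes the first enzyme of erythroid haem synthesis, stood at 33.2 CPM in S0-low and at 2298 CPM in S4/S5. Of the S0-low cells, 12.5% lay in clusters with markers of megakaryocytes, myeloid cells, macrophages, hepatocytes or endothelium and stroma, against at most 0.498% of any later stage. The 11 hepatocyte markers, none of them at 0, summed to 6044 CPM in S0-low and to between 344 and 776 CPM in the later stages.

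Globin messenger RNA took 1.08% of the UMIs in S0-low, 2.81% in S1, 38.8% in S3 and 64.9% in S4/S5. The median UMIs per cell went from 10108 in S1 to 3944 in S4/S5. A share of all UMIs therefore declines as globin accumulates, also for a gene whose share of the remaining UMIs stays the same. Levels are given as CPM, the mean over cells of a gene's UMIs per 1000000 UMIs of the cell, and, where the scale changes the reading, as non-globin CPM, which leaves 10 globin genes out of the denominator, or as UMIs per cell. Fewer molecules captured from a cell and less RNA in that cell cannot be told apart in these counts.

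**Figure D1:**
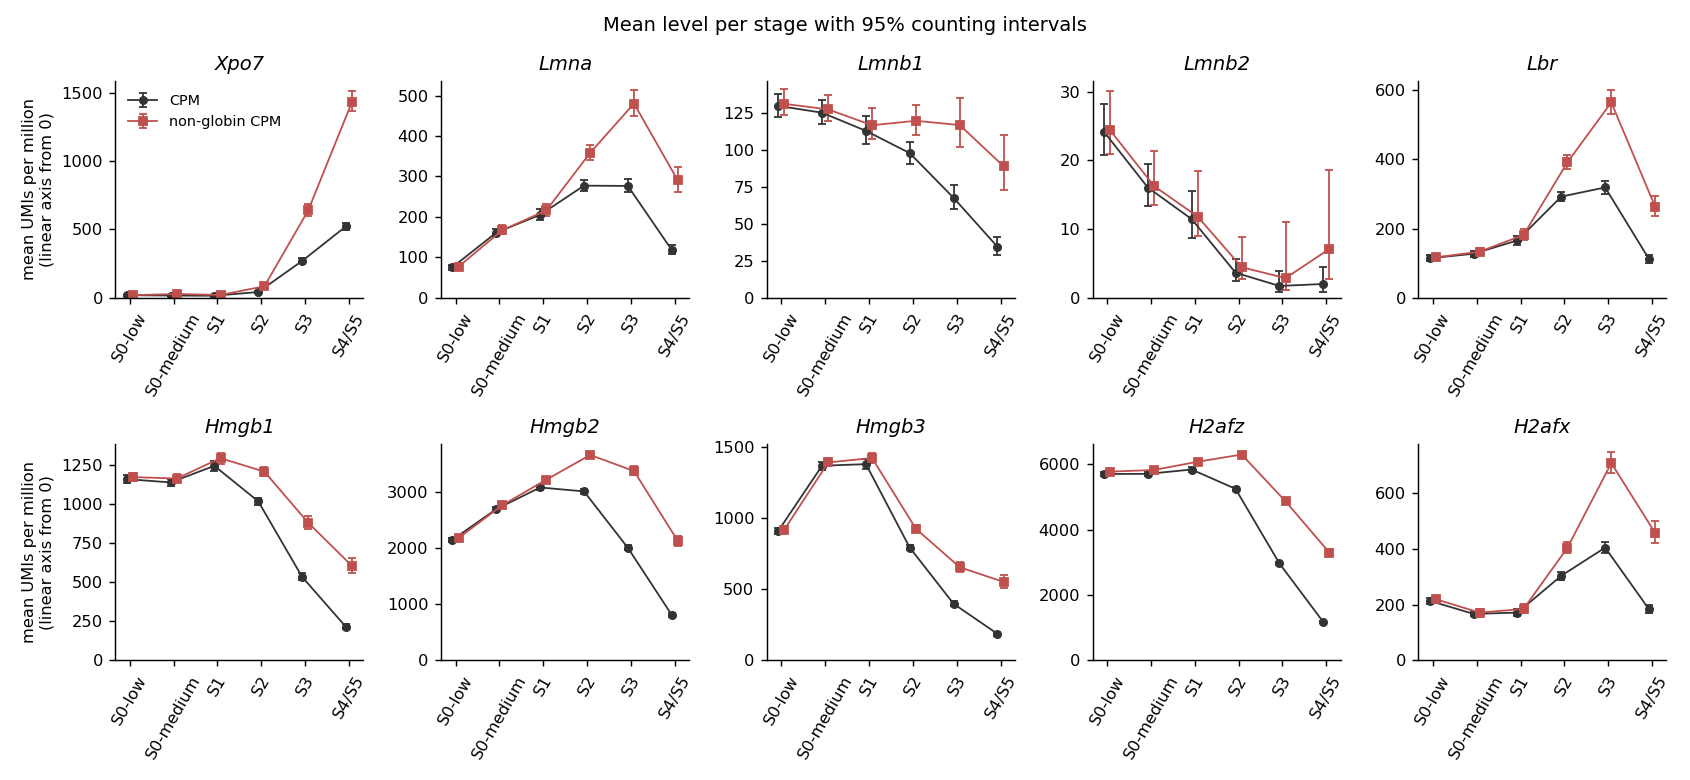
Mean level of each gene (vertical axes, UMIs per 1000000 on linear scales from 0) in the 6 stages (horizontal axes), as CPM (dark circles) and non-globin CPM (red squares), with 95% counting intervals. Xpo7 reaches 522 CPM in S4/S5 from 14.8 in S1, Lmna, Lbr and H2afx are highest in S2 or S3, and Lmnb1, Hmgb1 and H2afz are lowest in S4/S5 on both scales.

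Xpo7 (chr14:70662126-70770864, GRCm38.p6) was low in the Ter119-low stages and rose to its highest level in the most mature cells. Its mean level was 18.6 CPM (15.7 to 22.1, 197 UMIs) in S0-low. In S0-medium it was 16.1 (12.8 to 20.2) CPM and in S1 14.8 (10.9 to 20.1) CPM, from 122 and 66 UMIs. These 3 intervals overlap. S0-medium was at 0.861 (0.656 to 1.13) times S0-low as CPM and at 0.864 (0.689 to 1.08) times as UMIs per cell. As non-globin CPM it was at 1.45 (1.03 to 2.03) times, so their order depends on the scale. Globin took 1.42% of all S0-medium UMIs, and a cell with few non-globin UMIs weighs more in a mean of non-globin CPM. The part of such cells in this ratio was not tested. It then stood at 41.9 (36.2 to 48.4) CPM in S2, 269 (251 to 288) CPM in S3 and 522 (496 to 549) CPM in S4/S5, with intervals apart from all others. S3 was 18.2-fold (13.6 to 24.4) above S1, and 31.0-fold (21.7 to 44.3) as non-globin CPM and 9.91-fold (7.72 to 12.7) as UMIs per cell. Of the 7536 genes with at least 50 UMIs in these stages together, 0.159% had a larger S3 over S1 ratio as CPM. S4/S5 was a further 1.94-fold (1.79 to 2.11) above S3, or 2.25-fold (2.06 to 2.44) over non-globin UMIs and 1.74-fold (1.60 to 1.88) as UMIs per cell. Xpo7 was thus higher in the last stage on each of the scales, although a cell there held fewer UMIs in all.

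From S2 to S4/S5 the share of cells with an Xpo7 UMI rose with the level. With each cell thinned to 2000 UMIs the share in S0-low was 4.44%, that of S0-medium 2.0% and that of S1 2.33% (unthinned 12.4%, 9.70% and 9.30%). It was 5.25% in S2 (unthinned 10.3%), 25.4% in S3 (unthinned 35.6%) and 41.8% in S4/S5 (unthinned 51.5%). Clusters with markers of other cell types ran from 2.06% in megakaryocyte-like to 12.2% in macrophage-like cells, whose median depths were 8894 and 6328 UMIs, and their mean levels ran from 14.7 to 50.9 CPM. The shares of the stages up to S2 did not exceed this range, and those of S3 and S4/S5 did. No expression is read from the shares up to S2 alone. The macrophage-like cells, at the top of this range, had a median Ter119 count of 73.5, against 51 in S2. Free RNA was not measured, and its part in the shares and levels of the stages and clusters was not tested. The span of Xpo7 overlaps that of Dok2, a signalling adaptor gene on the opposite strand, which held 26.9 CPM in S0-low and between 1.39 and 2.42 CPM in the later stages. Its part in the Xpo7 counts was not tested.

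Cut more finely, the rise of Xpo7 began within the Ter119-intermediate class. Cells were ranked into 10 bins of Ter119-low cells by CD71, 5 bins of Ter119-intermediate cells by Ter119 and 5 bins of Ter119-high cells by falling CD71. In the 10 Ter119-low bins Xpo7 lay between 10.1 and 24.7 CPM, the highest value in the bin with the least CD71. Over the Ter119-intermediate bins it was 14, 22.2, 39.5, 107 and 132 CPM, while the median Ter119 count went from 30 to 80. These bins held all 1469 Ter119-intermediate cells, also the 211 with CD71 below that of S2, which are in no stage. S2, which leaves those 211 cells out, had a mean of 41.9 CPM. The part of the 211 cells in the rise over these bins was not tested. Over the Ter119-high bins it was 155, 285, 516, 570 and 460 CPM. The last step down has intervals apart as CPM (528 to 615 against 422 to 501) and overlapping as non-globin CPM (1401 to 1638 against 1240 to 1479).

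**Figure D2:**
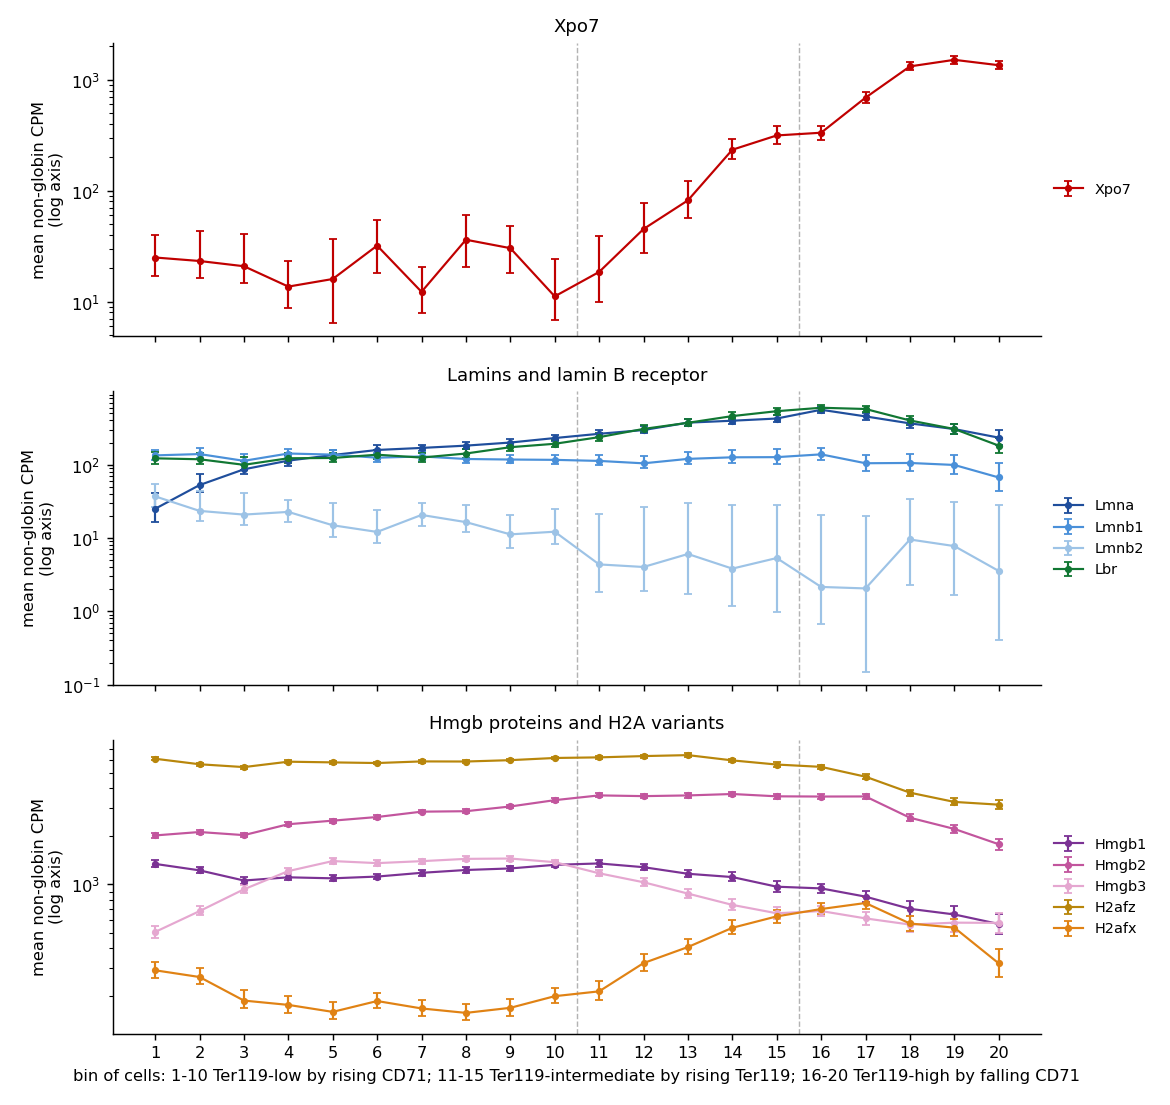
Mean non-globin CPM (vertical axes, log scales) with 95% counting intervals in 20 bins of cells (horizontal axis), of which bins 1 to 10 are Ter119-low by rising CD71, 11 to 15 Ter119-intermediate by rising Ter119 and 16 to 20 Ter119-high by falling CD71. Xpo7 goes from 18.5 in bin 11 to 1514 in bin 19, Lmna from 25 in bin 1 to 560 in bin 16, and Lbr and H2afx turn down after bins 16 and 17.

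Lmna (chr3:88481148-88509932), which encodes the A-type lamins, was the member at least 2-fold higher in S1 than in S0-low as CPM. Its level was 75.5 (69.6 to 82.0) CPM in S0-low, followed by 161 (152 to 171) in S0-medium and 205 (192 to 219) in S1. S1 was 2.72-fold (2.46 to 3.01) above S0-low, and over the 10 Ter119-low bins the level was higher in each bin than in the one before, from 24.8 CPM (16.3 to 36.7) to 216 CPM (198 to 237). Without the cells of the named non-erythroid clusters S0-low held 76.9 (70.5 to 83.9) CPM. Lmna stood at 277 (265 to 290) CPM in S2 and 277 (260 to 294) CPM in S3, which do not differ beyond their intervals, and at 118 (107 to 130) CPM in S4/S5. On the other scales S3 over S2 was 1.34 (1.24 to 1.45) as non-globin CPM and 0.767 (0.716 to 0.821) as UMIs per cell. From S1 to S3 the direction depends on the scale, as Lmna was 1.35-fold (1.24 to 1.47) higher as CPM, 2.22-fold (2.03 to 2.43) higher as non-globin CPM and 1.43-fold (1.33 to 1.55) lower as UMIs per cell.

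Both B-type lamin genes had their highest mean levels in S0-low as CPM. As UMIs per cell Lmnb1 was higher in S0-medium, at 1.32 (1.22 to 1.42) times S0-low, and in S1, at 1.2 (1.1 to 1.31) times. Lmnb1 (chr18:56707813-56753424) held 130 (122 to 138) CPM in S0-low, followed by 125 (118 to 134) in S0-medium and 113 (104 to 123) in S1. It held 97.9 (90.9 to 106) CPM in S2, 67.6 (59.8 to 76.4) CPM in S3 and 34.5 (28.6 to 41.4) CPM in S4/S5. Each mean is below the one before it, the intervals of neighbouring stages overlap up to S2, and those of S3 and S4/S5 lie apart. Over non-globin UMIs the picture was flatter, with a ratio of S3 to S1 of 1.0 (0.860 to 1.17) against 0.599 (0.519 to 0.691) as CPM, and with 89.0 (73.0 to 110) non-globin CPM left in S4/S5.

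Lmnb2 (chr10:80901363-80918245), the other B-type lamin gene, fell from S1 to S3 on each scale. It held 24.2 (20.8 to 28.1) CPM in S0-low, followed by 16 (13.4 to 19.5) in S0-medium and 11.4 (8.69 to 15.5) in S1. It held 3.65 (2.41 to 5.60) CPM in S2, 1.72 (0.801 to 3.85) CPM in S3 and 2.0 (0.793 to 4.51) CPM in S4/S5. S3 was 6.67-fold (3.35 to 13.3) below S1 as CPM and 4.14-fold (1.85 to 9.26) below it as non-globin CPM, from 14 and 78 UMIs. With 8 UMIs in S4/S5, a difference between the last stages was not detectable at this depth.

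As shares of all lamin UMIs, which do not depend on globin, the makeup of the lamin transcripts turned over. In S0-low Lmna made up 34.0% (32.2% to 35.9%) of them, against 54.4% in S0-medium and 61.2% in S1. It made up 72.0% in S2, 78.5% (76.4% to 80.5%) in S3 and 76.2% (72.6% to 79.6%) in S4/S5. Lmnb1 went from 56.0% in S0-low to 20.6% in S3, and Lmnb2 from 9.96% to 0.880%. Among cells outside the erythroid lineage Lmna took 8.86% (6.14% to 12.3%) of lamin UMIs in myeloid-like and 51.1% (45.8% to 56.3%) in megakaryocyte-like cells. It took 58.1% (53.02% to 63.05%) in hepatocyte-like, 31.5% in macrophage-like and 21.2% in endothelial and stromal-like cells.

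**Figure D3:**
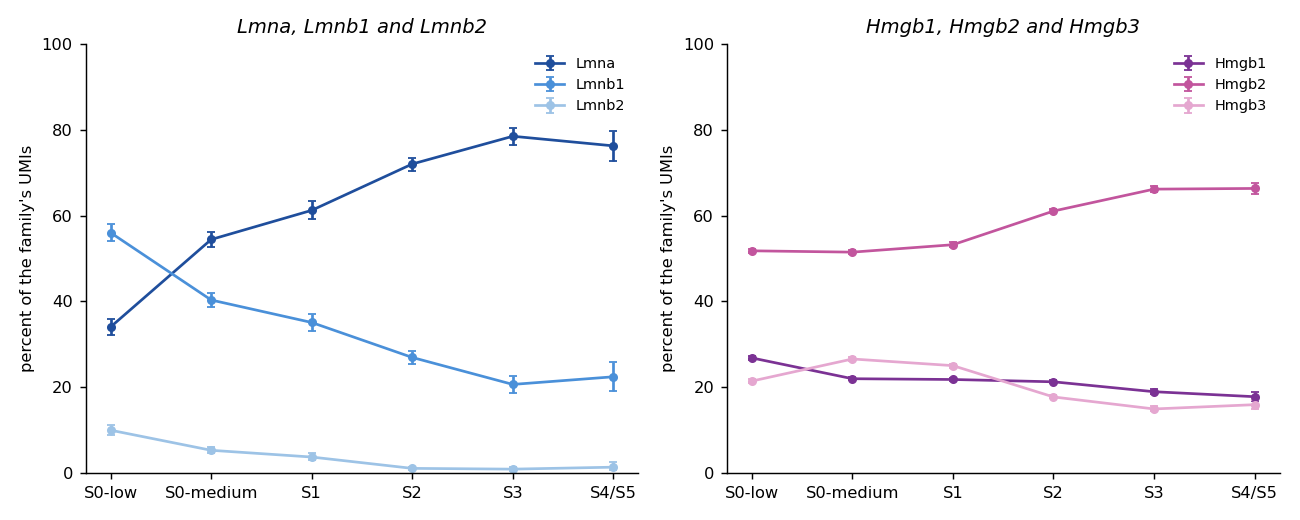
Percent of the UMIs of the 3 lamin genes (left) and of the 3 Hmgb genes (right) that each gene held in the 6 stages, with exact 95% binomial intervals, on axes from 0 to 100. Lmna goes from 34.0% to 78.5% of lamin UMIs between S0-low and S3, Hmgb2 from 51.8% to 66.2% and Hmgb3 from 21.4% to 14.9% of Hmgb UMIs.

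Lbr (chr1:181815315-181842401), the partner of the B-type lamins and also a sterol reductase, followed neither Lmnb1 nor Lmnb2. Its level was 114 (106 to 122) CPM in S0-low, followed by 127 (119 to 136) in S0-medium and 166 (154 to 179) in S1. It was 292 (279 to 306) CPM in S2, 319 (301 to 338) CPM in S3 and 112 (101 to 124) CPM in S4/S5, so that Lbr was highest in S2 and S3. S3 over S2 was 1.09 (1.01 to 1.17) as CPM, 1.44 (1.33 to 1.56) as non-globin CPM and 0.890 (0.833 to 0.952) as UMIs per cell. How S4/S5 stood against S0-low depended on the scale, with ratios of 0.98 (0.869 to 1.11) as CPM, 2.25 (1.99 to 2.56) as non-globin CPM and 0.600 (0.536 to 0.671) as UMIs per cell. S3 was 1.92-fold (1.75 to 2.11) above S1, or 3.11-fold (2.81 to 3.43) over non-globin UMIs and 1.05 (0.963 to 1.14) times as UMIs per cell. S4/S5 was 2.85-fold (2.54 to 3.20) below S3 as CPM and 2.15-fold (1.9 to 2.42) below it over non-globin UMIs.

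Hmgb1 (chr5:149046702-149053057), Hmgb2 (chr8:57511843-57515999) and Hmgb3 (chrX:71555917-71560673) encode chromatin proteins with paired DNA-binding boxes. H2afz (chr3:137864487-137866922, H2az1 in RefSeq) encodes H2A.Z, a variant found around the start sites of active genes. RefSeq promoter windows on GRCm38.p6, each from 250 bases before to 50 bases after a transcription start, were at hand for 7 of the 10 members, 10 windows in all, and not for Xpo7, Lmnb1 and H2afx. The 4 below, of the Hmgb genes and H2afz, are shown because each holds at least 3 copies of CCAAT, the core of the CCAAT box. Copies were counted on both strands and are set in capitals, ATTGG being the same core on the opposite strand. At least 3 copies were present in 3.37% of all 32851 windows, at least 2 in 11.7% and at least 1 in 37.4%. The windows are chr5:149053008-149053307 on the minus strand for Hmgb1 and, on the plus strand, chr8:57511593-57511892 for Hmgb2, chrX:71555667-71555966 for Hmgb3 and chr3:137864237-137864536 for H2afz, all written 5′ to 3′ along the gene.
Hmgb1: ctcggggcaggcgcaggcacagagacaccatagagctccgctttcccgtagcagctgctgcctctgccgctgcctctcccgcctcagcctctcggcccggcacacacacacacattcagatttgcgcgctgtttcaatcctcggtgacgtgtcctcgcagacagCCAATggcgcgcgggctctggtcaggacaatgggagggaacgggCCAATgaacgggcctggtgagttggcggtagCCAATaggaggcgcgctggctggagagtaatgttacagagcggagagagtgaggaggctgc
Hmgb2: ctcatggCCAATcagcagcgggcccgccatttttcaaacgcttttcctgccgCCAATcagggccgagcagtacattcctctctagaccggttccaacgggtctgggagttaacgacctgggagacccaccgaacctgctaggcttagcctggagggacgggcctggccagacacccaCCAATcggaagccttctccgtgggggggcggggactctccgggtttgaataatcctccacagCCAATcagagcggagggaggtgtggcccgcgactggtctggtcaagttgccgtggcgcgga
Hmgb3: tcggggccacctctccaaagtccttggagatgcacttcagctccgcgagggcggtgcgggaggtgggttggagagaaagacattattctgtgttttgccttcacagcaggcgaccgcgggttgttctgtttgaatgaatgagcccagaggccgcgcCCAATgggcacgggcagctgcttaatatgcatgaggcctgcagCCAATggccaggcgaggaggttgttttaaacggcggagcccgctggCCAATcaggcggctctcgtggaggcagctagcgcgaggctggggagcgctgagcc
H2afz: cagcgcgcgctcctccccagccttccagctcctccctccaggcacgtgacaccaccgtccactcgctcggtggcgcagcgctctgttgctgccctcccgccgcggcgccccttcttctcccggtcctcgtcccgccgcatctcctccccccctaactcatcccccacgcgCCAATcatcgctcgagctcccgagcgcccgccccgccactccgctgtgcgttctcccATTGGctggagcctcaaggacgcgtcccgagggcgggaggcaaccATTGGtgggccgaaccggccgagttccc

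The Lbr window held 2 copies of CCAAT and the Lmna windows 0 and 1. Both Lmnb2 windows and a second Hmgb1 window held none. TTTGAA, the core of the cell cycle genes homology region, was counted in the same way and was present in the windows of Hmgb2 with 2 copies, of Hmgb3 and Lbr with 1 each, and in 17.9% of all windows. AGATAA, which erythroid GATA factors recognise, was present in the Lbr window and in 11.2% of all windows. These matches describe the letters of the windows, and binding was not measured.

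The 4 genes with the windows printed above had their highest mean levels in S1 and their lowest in S4/S5 as CPM. As non-globin CPM, Hmgb2 and H2afz were highest in S2, at 3663 and 6292 against 3221 and 6073 in S1. The S1 over S0-low ratios of Hmgb1, 1.07, and of H2afz, 1.02, were below 1 with log10 or within-cell antibody scales and with a Gaussian mixture for the classes, down to 0.884 and 0.965. Hmgb1 held 1160 (1135 to 1184) CPM in S0-low, followed by 1139 in S0-medium and by 1245 (1213 to 1278) in S1. It held 1018 CPM in S2, 535 (513 to 558) CPM in S3 and 215 (199 to 231) CPM in S4/S5. Hmgb1 is the member of the family found in nearly all cell types. Hmgb2, which is tied to proliferating cells, held 2149 (2117 to 2182) CPM in S0-low, followed by 2698 in S0-medium and by 3083 (3032 to 3135) in S1. It held 3013 (2974 to 3054) CPM in S2, 2008 (1965 to 2052) CPM in S3 and 813 (783 to 843) CPM in S4/S5. From S1 to S2 the ratio of Hmgb2 depended on the scale, at 0.977 (0.957 to 0.998) as CPM, 1.14 (1.11 to 1.16) as non-globin CPM and 0.722 (0.708 to 0.735) as UMIs per cell. Hmgb3, a gene active in blood progenitors, held 908 (887 to 930) CPM in S0-low, followed by 1366 (1339 to 1393) in S0-medium and by 1377 (1344 to 1411) in S1. It held 791 CPM in S2, 397 (378 to 417) CPM in S3 and 186 (172 to 202) CPM in S4/S5. As CPM the intervals of Hmgb3 in S0-medium and S1 overlap, and over the Ter119-low bins it went from 500 CPM (461 to 542) in the bin with the least CD71 to 1382 CPM in the fifth. H2afz lay between 5697 and 5834 CPM over the Ter119-low stages, and stood at 5244 (5192 to 5297) in S2, 2967 (2915 to 3021) in S3 and 1175 (1139 to 1212) in S4/S5.

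The size of the late decline depends on the denominator. From S1 to S3, Hmgb3 fell 3.47-fold and Hmgb1 2.33-fold as CPM, while H2afz was 1.97-fold and Hmgb2 1.53-fold lower. As non-globin CPM Hmgb3 alone of these 4 fell at least 2-fold, to 0.460 (0.434 to 0.488) of its S1 level, and Hmgb2 was at 1.05 (1.02 to 1.08). As UMIs per cell each was lower, from 2.64-fold for Hmgb2 to 5.50-fold for Hmgb3. From S3 to S4/S5 the ratios ran from 0.396 for H2afz to 0.469 for Hmgb3 as CPM, and from 0.631 for Hmgb2 to 0.843 for Hmgb3 as non-globin CPM. Of Hmgb UMIs, Hmgb2 took 51.8% (51.3% to 52.2%) in S0-low and 66.2% (65.4% to 66.9%) in S3, while Hmgb3 went from 26.6% (26.2% to 26.9%) in S0-medium to 14.9% (14.3% to 15.5%) in S3. RefSeq lists 12 pseudogenes named after Hmgb1 and 1 after Hmgb3, whose reads the counting could share with the genes, so these levels are less certain.

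H2afx (chr9:44334715-44336077, H2ax in RefSeq), whose product is the variant phosphorylated at DNA breaks, did not follow H2afz. It was at 213 (203 to 224) CPM in S0-low, followed by 166 (157 to 176) in S0-medium and 171 (159 to 184) in S1, with overlapping intervals in S0-medium and S1. It was higher in S2 at 303 (289 to 317) CPM and in S3 at 404 (384 to 424) CPM, and stood at 183 (169 to 198) CPM in S4/S5. S3 was 2.36-fold (2.16 to 2.57) above S1 as CPM, 3.83-fold (3.49 to 4.20) as non-globin CPM and 1.29-fold (1.19 to 1.39) as UMIs per cell. Of the UMIs of both H2A variant genes, H2afx held 2.76% (2.60% to 2.93%) in S1, 10.8% (10.3% to 11.3%) in S3 and 12.4% (11.6% to 13.3%) in S4/S5. All 10 members together took 1.04% of non-globin UMIs in S0-low, 1.33% in S2 and 0.998% in S4/S5.

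Members that differed at least 2-fold were counted beside all genes with at least 50 UMIs in the stages compared. From S0-low to S1, 1 of 10 members was higher (Lmna, against 3.26% of 9328 genes) and 1 lower (Lmnb2, against 18.4%), with a median log2 ratio of 0.07 for the members and -0.25 for all genes. From S1 to S3, 2 were higher as CPM (Xpo7 and H2afx, against 4.18% of 7536 genes) and 3 lower (Lmnb2, Hmgb1 and Hmgb3, against 62.3%), with median log2 ratios of -0.68 and -1.30. Most genes thus moved down on this scale. Over non-globin UMIs 4 members were higher (Xpo7, H2afx, Lbr and Lmna, against 10.1%) and 2 lower (Lmnb2 and Hmgb3, against 30.5%), with medians of 0.03 and -0.59. As UMIs per cell 1 was higher (Xpo7, against 1.42%) and 6 were lower, against 85.5%. From S3 to S4/S5, 7 of 9 members tested were lower as CPM, against 43.4% of 5400 genes, and 0 higher, against 0.0741%. Over non-globin UMIs 1 was higher (Xpo7, against 2.70%) and 1 lower (Lbr, against 7.69%), with medians of -0.56 and -0.18.

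**Figure D4:**
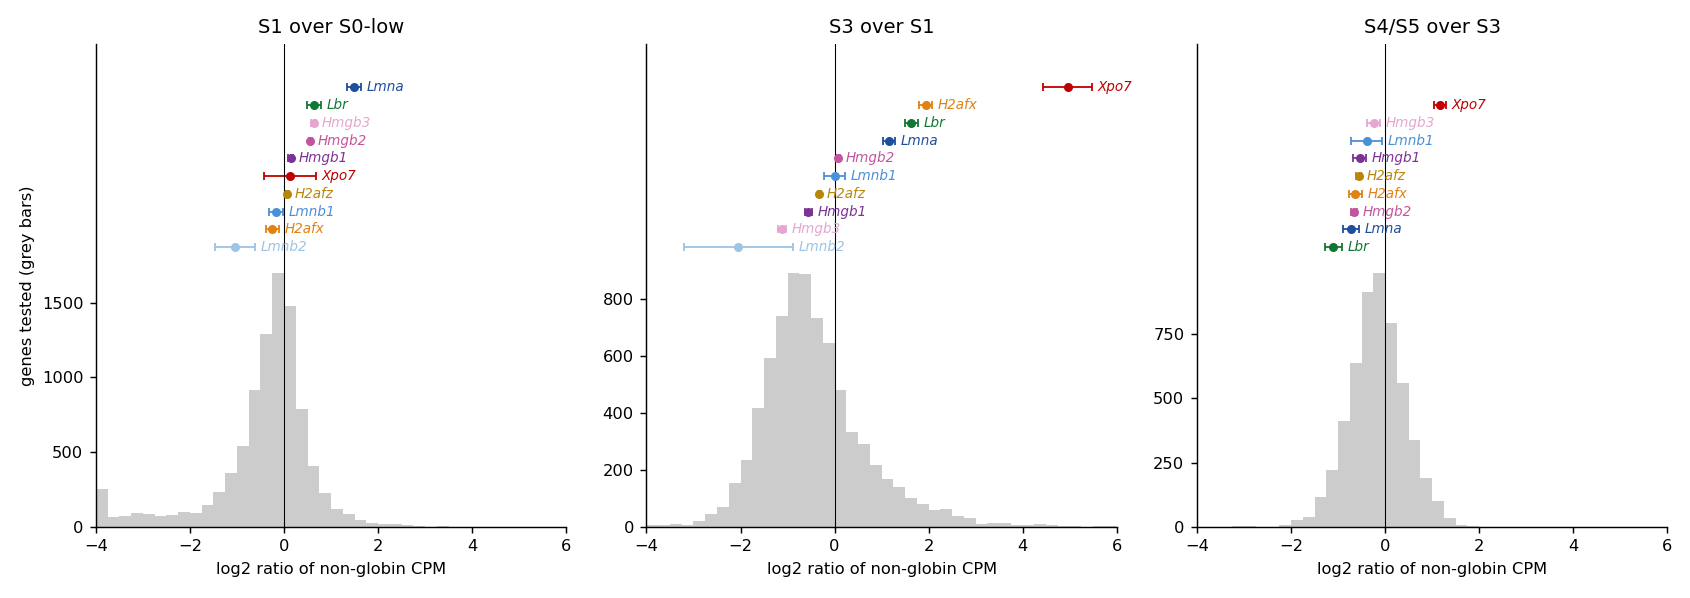
Log2 ratios of non-globin CPM (horizontal axes) for S1 over S0-low, S3 over S1 and S4/S5 over S3. Grey bars count the genes tested (vertical axes), with ratios beyond the range in the end bars, and coloured points above them are the members, ordered by ratio, with 95% counting intervals. In S3 over S1 Xpo7 has the highest ratio of the members at 31.0, while H2afx, Lbr and Lmna lie between 2.22 and 3.83.

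Within a stage, cells were then ranked by their UMIs of 34 genes of the G2 and M phases, a list without any member, at an equal depth of 2000 UMIs per cell. In S3 the 278 cells with the most (G2/M-high) held 29.4 such UMIs per cell and the 278 with the fewest (G2/M-low) held 3.25. H2afx was at 701 CPM in G2/M-high and 68.3 CPM in G2/M-low cells, 10.3-fold (7.34 to 14.7) higher. Hmgb2 was 5.52-fold (4.90 to 6.23), Lbr 4.68-fold (3.54 to 6.26) and Lmna 3.87-fold (2.92 to 5.20) higher. Xpo7 went the opposite way, with 28.8 CPM (16 UMIs) in G2/M-high and 633 CPM (352 UMIs) in G2/M-low cells, a ratio of 0.0454 (0.0257 to 0.0749). Of 9 members with at least 50 UMIs, 8 were at least 1.5-fold higher in G2/M-high cells, against 57.1% of 1654 genes, and 1 was lower, against 6.59%. Over non-globin UMIs 7 were higher, against 22.7%, and 1 was lower, against 14.1%. The ratios on that scale were 6.98 for H2afx, 3.75 for Hmgb2, 3.18 for Lbr, 2.63 for Lmna and 0.0309 for Xpo7.

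The ranked S3 cells also differed in other measures. Globin took 38.4% of UMIs in G2/M-high and 58.1% in G2/M-low cells, the median CD71 count was 1432 and 1138, and the median Ter119 count was 126 and 132. Their part in the ratios was not tested. When S3 cells were ranked by 28 S-phase genes in place of the G2 and M genes, Xpo7 was at 0.0479 (0.0259 to 0.0818). Globin then took 28.1% and 57.9% of UMIs in the cells with the most and the fewest S-phase UMIs, with median CD71 counts of 1670 and 1140, which is a wider gap than with the G2 and M genes. The order of the others changed, with Hmgb1 at 4.20 (3.45 to 5.15), Hmgb3 at 3.82 and H2afz at 3.63 as CPM. Behind them were H2afx at 3.07, Hmgb2 at 2.97, Lmnb1 at 2.80, Lbr at 2.11 and Lmna at 1.87. The size of these ratios includes the globin gap. Neither non-globin ratios nor a share of all genes stand beside them, so they are not read as a trait of the members.

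In S1 the 200 G2/M-high and as many G2/M-low cells held 18.2 and 7.14 UMIs of the list per cell, with 4.79% and 4.21% globin. Of 10 members 3 were at least 1.5-fold higher, namely H2afx at 1.54 (1.09 to 2.21), Lmna at 1.5 (1.09 to 2.07) and, on 5 and 3 UMIs, Lmnb2. With at least 50 UMIs required, 2 of 8 members were, against 3.22% of 2360 genes. Hmgb2 was at 1.12 (1.03 to 1.21), and Xpo7 had 5 and 8 UMIs, too few to compare. In S2, H2afx at 2.43 (2.02 to 2.94) and Hmgb2 at 1.52 (1.44 to 1.61) were higher, against 7.91% of genes. Xpo7 was lower in G2/M-high cells of S2 at 0.0920 (0.0385 to 0.189), against 5.23%, from 8 and 87 UMIs. In S4/S5, 8 of 9 were higher as CPM, against 55.1% of genes, led by Lbr at 10.4 (6.12 to 19.0) and Lmna at 7.12 (4.63 to 11.4). Xpo7 was at 0.734 (0.618 to 0.870) there as CPM. Globin took 57.5% of UMIs in G2/M-high and 71.8% in G2/M-low cells of S4/S5. With this gap the Xpo7 ratio over non-globin UMIs lies further below 1 than the one as CPM, and its value is not given here. Over non-globin UMIs 7 members were higher, against 18.9%. The difference in these ratios between stages was not tested.

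**Figure D5:**
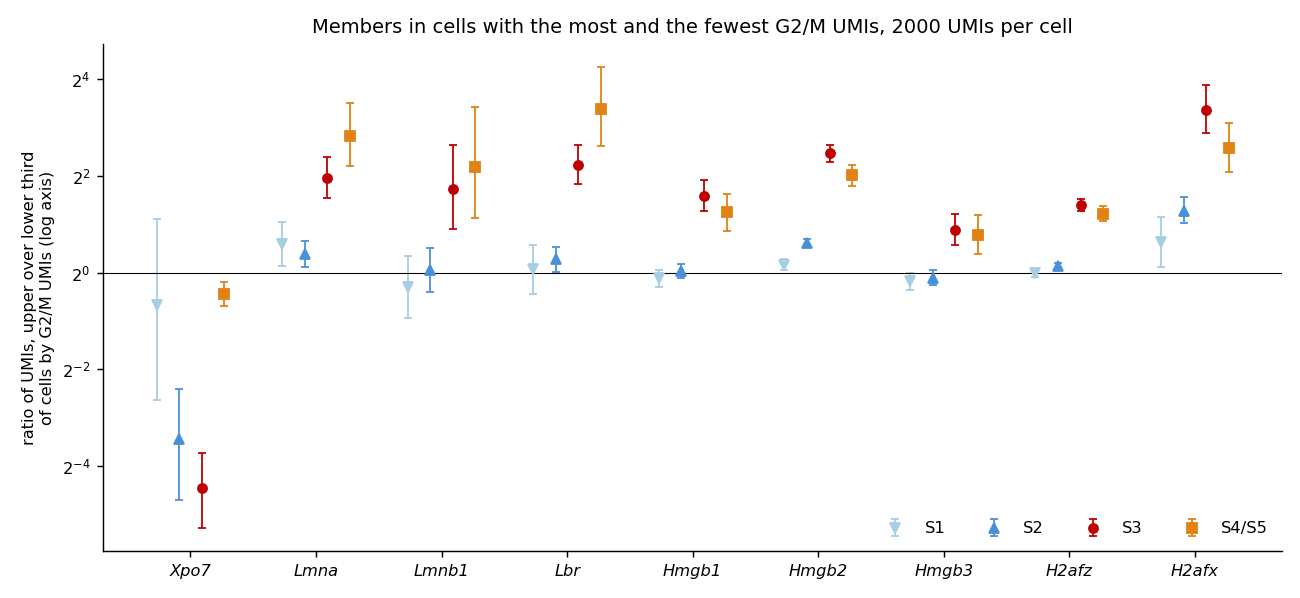
Ratio of UMIs between cells with the most and cells with the fewest UMIs of 34 G2 and M genes (vertical axis, log scale with base 2) for 9 members (horizontal axis) within S1, S2, S3 and S4/S5, at 2000 UMIs per cell and with exact 95% counting intervals. In S3 (red circles) Xpo7 lies at 0.0454 and the other members shown lie between 1.85 for Hmgb3 and 10.3 for H2afx.

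The cells were also split by Xpo7 itself, which describes the same association in the same cells and is no independent view of it. Among S3 cells thinned to 2000 UMIs, the 212 cells with an Xpo7 UMI held 6.51 UMIs of the G2 and M genes per cell, and the 623 cells without one held 18. Globin took 55.4% of UMIs in the cells with Xpo7 and 39.8% in the others, and the median CD71 count was 1121 and 1453. The median depth before thinning was 3602 and 4858 UMIs, and the part of these differences was not tested. As non-globin CPM, H2afx in cells with an Xpo7 UMI was at 0.371 (0.275 to 0.491), Hmgb2 at 0.424 (0.377 to 0.476) and Hmgb1 at 0.494 (0.397 to 0.609) of the level in the others. Lbr was at 0.540 (0.410 to 0.701), Lmna at 0.541 (0.401 to 0.719), H2afz at 0.579 (0.532 to 0.630) and Hmgb3 at 0.725 (0.581 to 0.897), all below 1, while the interval of Lmnb1 at 0.583 (0.315 to 1.01) reached past 1. In S2 the 66 cells with an Xpo7 UMI and the 1192 without had globin shares of 38.5% and 17.0%. Their median depths before thinning were 3452 and 6146 UMIs, and the part of these differences was not tested. In S2 cells with Xpo7, Hmgb1 was at 0.571 (0.433 to 0.739), Hmgb2 at 0.711 (0.618 to 0.815) and H2afz at 0.746 (0.673 to 0.825). There the intervals of Lmna at 1.12 (0.742 to 1.62), Lbr at 0.768 (0.478 to 1.17), Hmgb3 at 0.850 (0.656 to 1.08), H2afx at 0.678 (0.417 to 1.04) and Lmnb1 at 0.953 (0.430 to 1.84) included 1. In S4/S5 the 359 cells with an Xpo7 UMI and the 500 without had globin shares of 62.9% and 68.1%, the other way round from S3. There Lbr was at 0.332 (0.231 to 0.468), H2afx at 0.351 (0.268 to 0.455), Lmna at 0.505 (0.373 to 0.675) and Hmgb2 at 0.576 (0.513 to 0.646) of the level in cells without. A cell without an Xpo7 UMI at this depth may still hold the transcript. No share of all genes stands beside these ratios, so they are not read as a trait of the members.

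For each member the 3 genes with the most similar profile over the 20 bins were found among 4488 genes, by Pearson's r of log2 pooled CPM plus 10. The bins come from 1 library and share its depth and globin trend, so r is a description. Xpo7 was most like Tbcel, a tubulin cofactor-like gene (0.991), the ubiquitin-conjugating enzyme gene Ube2b (0.989) and Tcp11l2 (0.987). Lmna was most like the glyoxalase gene Glo1 (0.989), the iron-sulfur cluster gene Glrx5 and Agpat4. Lmnb1 was most like Ptp4a2, Tardbp and Sep15, from 0.987 to 0.991, and Lmnb2 was most like Impa2, Fdx1 and the glycolytic gene Pkm, from 0.974 to 0.976. Lbr was most like the kinetochore gene Spc25 (0.972), Fam109b and Fam53b. Hmgb1 was most like mt-Cytb (0.997), Rheb and Rpl22l1, and Hmgb3 was most like Minpp1 (0.992), Nudt19 and Psmd4. Hmgb2 was most like Ccdc34 (0.990), Anp32e, whose product removes H2A.Z from nucleosomes, and Pcmt1. H2afz was most like the ribosomal protein genes Rpl39 and Rpl13 and the Rpl13 copy Rpl13-ps3 (0.997), which may share reads with its parent. H2afx was most like Arl6ip1 (0.965), with Ubald2 and the endosomal gene Rab11a next at 0.922 and 0.899. Between members r was 0.994 for Hmgb1 and H2afz, 0.796 for Lbr and H2afx, and -0.923 for Xpo7 and Hmgb3.

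Other genes of the same pathways were counted for S3 over S1, where 62.3% of all genes were at least 2-fold lower as CPM and 30.5% as non-globin CPM. At least 2-fold higher were 4.18% of all genes as CPM and 10.1% as non-globin CPM. Of 23 genes of nuclear transport, none was at least 2-fold higher and 16 were lower (7 over non-globin UMIs), with a median log2 ratio of -1.59 against -1.30 for all genes. The export receptor gene Xpo6 went from 26.1 to 5.16 CPM and the import receptor genes Ipo7 and Ipo5 were 4.21-fold and 4.05-fold lower, where Xpo7 rose 18.2-fold. Of 9 genes of the lamina and of the LINC complex, which links it to the cytoskeleton, 1 was higher (Narf, a lamin-binding factor gene) and 3 lower (2 over non-globin UMIs), with a median of -0.86. The genes lower as CPM were Zmpste24 (2.50-fold), the protease that matures prelamin A, the chromatin-bridging Banf1 (3.21-fold) and Lemd2 of the inner nuclear membrane (5.97-fold, on 9 UMIs in S3). Over non-globin UMIs Zmpste24 was at 0.638 of its S1 level, short of 2-fold. Of 9 other HMG genes none was higher and 6 were lower (3 over non-globin UMIs), with a median of -1.29. They included Hmga1, from 28.1 to 2.19 CPM, the nucleosome-binding Hmgn1, from 679 to 112 CPM, and the FACT subunit gene Ssrp1, from 380 to 113 CPM.

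Of 27 genes of other histone variants and of histone chaperones, 1 was higher, the histone H3.3 gene H3f3a, and 19 were lower (9 over non-globin UMIs), with a median of -1.38. The nucleolar histone chaperone gene Npm1 fell 6.56-fold, the chaperone gene Set 5.49-fold and Ruvbl2, of the complexes that load H2A.Z, 5.09-fold. Of 28 condensin and heterochromatin genes none was higher as CPM and 14 were lower, with a median of -1.05. Over non-globin UMIs 1 of them was higher, the condensin subunit gene Ncapg, and 8 were lower. The acetyltransferase gene Kat2a fell 7.02-fold and the histone methyltransferase genes Ehmt1 and Ehmt2 6.81-fold and 5.88-fold, each on at most 20 UMIs in S3. Of 20 genes tied to enucleation and nuclear opening, 3 were higher (E2f2, Foxo3 and Riok3) and 7 lower, or 7 and 2 over non-globin UMIs, with a median of -0.71. The cell cycle regulator gene E2f2 rose 3.50-fold, from 37.0 to 130 CPM, while the transcriptional coregulator gene Cited2 was 3.67-fold lower.

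Of the 34 G2 and M genes 3 were higher and 0 lower as CPM, with a median of 0.08, and 12 were higher over non-globin UMIs. As UMIs per cell 0 were higher and 10 lower, against 1.42% and 85.5% of all genes, with medians of -0.75 and -2.03. The genes higher as CPM were the spindle gene Nusap1 (3.48-fold), the mitotic ubiquitin-conjugating enzyme gene Ube2c (3.43-fold) and the cytokinesis gene Ect2 (2.03-fold). Of 28 S-phase genes none was higher and 19 were lower (5 over non-globin UMIs), with a median of -1.17, among them the DNA repair genes Ung (5.23-fold) and Exo1 (4.79-fold) and the nucleotide enzyme gene Dut (4.50-fold). From S3 to S4/S5 the G2 and M list had 29 of 34 genes lower as CPM, or 11 over non-globin UMIs, against 43.4% and 7.69% of all genes.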

How the data were processed

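The series holds 1 cDNA library and 1 antibody library, prepared from the same cells. The authors mapped the cDNA reads to mm10 with Cell Ranger, and the deposited values are unnormalized UMI counts and antibody counts. The submitters' processing notes also name Seurat. Positions and promoter windows are those of RefSeq on GRCm38.p6, the assembly behind mm10.

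Cells were required to have 300 to 5000 genes and 9% mitochondrial UMIs or fewer (508 cells failed), and 128 cells (1.63%) were removed as doublets with Scrublet in scanpy 1.11.5 (expected rate 6%), leaving 7244. Cells whose 5 lineage antibodies summed to more than the median plus 2 scaled median absolute deviations (73.6 counts) were set aside. Antibody counts were transformed to centred log ratios across cells. K-means gave 3 Ter119 classes, 3 CD71 classes in Ter119-low and 2 in Ter119-high cells (scikit-learn 1.9.0). S2 is Ter119-intermediate above the upper CD71 border, and 211 cells fell in no stage. Of 17 clusters, 5 were named from at least 3 markers among their 10 leading genes.

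Levels are means over cells with Fay-Feuer gamma intervals. Ratios of levels have weighted Poisson intervals, and shares and the comparisons of thinned cells have exact binomial ones (scipy 1.17.1), all at 95% and covering counting error only. With 1 library there is no test across samples. Ratios over all genes used genes with at least 50 UMIs, globins left out. The genes named are the members, the 3 with the largest S3 over S1 change past 2-fold in each list, and the 3 most alike for each member among genes with at least 1000 UMIs. One gene that this rule names in a list is not reported here. Narf, H3f3a, Foxo3, Riok3, Ncapg and Dok2 were named, and the motifs and the split by an Xpo7 UMI chosen, after the values were seen. The members and lists were chosen with earlier results of these data known. Ratios and stage classes were tested on simulated data. Other scales, gates, filters and folds were tried.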

Additional observations from a re-analysis of the deposited data

How the results depend on the processing

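No paired analysis was possible because there is 1 library and no replicate, and for the same reason none could be left out. Over other gates, filters and pooled CPM, the S3 over S1 ratio of Xpo7 lay between 11.8 and 19.1, of H2afx between 2.26 and 2.54 and of Lmnb2 between 0.137 and 0.249, and the S4/S5 over S3 ratio of Xpo7 between 1.60 and 2.19. The S1 over S0-low ratio of Lmna lay between 2.6 and 6.0, highest with antibodies scaled within each cell. That of Lbr lay between 1.05, with log10 antibody counts, and 1.46. Of the recomputed counts, 60 stayed within 1.5 times the reported count and 22 did not, and the cause of the changes was not tested.

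From S0-low to S1, the members at least 2-fold higher were 2 in place of 1 as UMIs per cell, with log10 or within-cell antibody scales, with a Gaussian mixture for the classes, and at 1.5-fold. The members lower were 0 in place of 1 as UMIs per cell, as pooled CPM and with no quality filter. From S1 to S3, the members higher were 4 in place of 2 as non-globin CPM and 1 as UMIs per cell, and the members lower were 6 in place of 3 as UMIs per cell and at 1.5-fold. From S3 to S4/S5, the members higher were 1 in place of 0 as non-globin CPM, as pooled CPM, with log10 antibody counts, with no lineage filter, with doublets kept and at 1.5-fold, and the members lower were 1 in place of 7 as non-globin CPM. In S1, the members at least 1.5-fold higher in G2/M-high cells were 0 in place of 3 without thinning and at 2-fold, and 1 when cells were ranked by S-phase genes. In S3 that count stayed within 1.5 times its 8 under each alternative. Except where a share was given above, no share of all genes stands beside these recounts, so they are not read as a trait of the members. With no minimum of UMIs, 7.01% of genes in place of 3.26% were higher and 38.0% in place of 18.4% lower from S0-low to S1, 12% in place of 4.18% were higher from S1 to S3, and 11.2% in place of 0.0741% from S3 to S4/S5.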

Other observations

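In clusters named from markers of other lineages, the members' levels are given as descriptions with no test, since the clustering used the most variable genes and members were not left out of them. In 273 myeloid-like cells, with the granule and calprotectin genes Ngp, Elane and S100a9 among the 10 leading genes, Lmna stood at 18.8 (12.2 to 28.8) CPM and Hmgb3 at 306 (279 to 335) CPM, while Hmgb2 stood at 3401 (3308 to 3497) and Lbr at 206 (184 to 231) CPM. In 146 megakaryocyte-like cells, which share a progenitor with erythroid cells, Lmna stood at 145 (121 to 174) and Hmgb3 at 885 (827 to 948) CPM. In 189 hepatocyte-like cells H2afz stood at 2991 (2909 to 3075) and Hmgb2 at 1008 (961 to 1057) CPM, and in 82 macrophage-like cells Lbr stood at 27.1 (14.4 to 51.6) CPM. Free RNA from erythroid cells can add to these counts, and its part was not tested.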
